A study of Mus musculus with 4 samples.

Results

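Genes of the lysosome and of autophagy were examined in 2 mammary tumor cell lines, 8534 and 8542, in which doxycycline switches off the NOTCH1 oncogene. The genes were 37 listed symbols, named in a list that was drawn up with earlier results of these data known: 26 lysosomal genes (hydrolases, lipid-handling and membrane proteins, and subunits of the proton pump), 10 autophagy genes, and Tfeb, which encodes a transcription factor of lysosomal genes. Where a gene had several probe sets with a single symbol, the brightest on average stood for it, which gave 36 genes of 18193 on the arrays. Cd63, the gene of a tetraspanin of late endosomes, had no probe set named for it in the annotation used here. All 36 lay above the filter on signal and were tested, as were 15070 genes in all.

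Both lines were established from MMTV-tTA/TOP-ICN1 mammary tumors of female FVB/N;B6 mice, 1 tumor per line. In these mice the MMTV promoter drives the tetracycline transactivator, which in turn switches on human ICN1, the active intracellular part of NOTCH1. Cells received 2 µg/ml doxycycline for 24 hours (ICN1 off) or were left untreated (ICN1 on), and every group carried both transgenes. RNA of each line and condition was hybridized to 1 Affymetrix mouse array, so that the line was the replicate (n = 2 lines). No cells without the transgenes were treated, and an effect of doxycycline itself cannot be told apart from that of ICN1 loss.

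Lysosomes are acidic organelles that take apart proteins, lipids, glycans and worn organelles. Their hydrolases work at the low pH set by the vacuolar proton pump, and their limiting membrane is coated with glycoproteins such as LAMP1 and LAMP2. Macroautophagy brings cytoplasmic cargo to them: a membrane is nucleated, the ubiquitin-like ATG8 proteins are conjugated to it, receptors such as p62 load the cargo, and the closed autophagosome fuses with the lysosome. Many of these genes carry the CLEAR element, which is bound by TFEB and its relatives TFE3 and MITF. In the mammary gland lysosomal proteases are known for their part in involution after weaning.

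The CLEAR element is built around an E-box, CACGTG, which other basic helix-loop-helix factors, MYC among them, also bind. The RefSeq windows of the members (GRCm38.p6, 250 bases before to 50 after an annotated start) were searched on both strands for CACGTG, for TCACGTGA, the centre of the CLEAR element, which contains the E-box, and for TGGGAA, the core bound by the NOTCH partner CSL. Windows were matched for 29 of the 37 genes, all but Npc1, Ctsb, Becn1, Atg12, Atp6v1h, Ctsh, Atg16l1 and Asah1. CACGTG was present for 11 of 29 (37.9%), against 8.09% of the 27025 genes with a window. TCACGTGA was present for 6 of 29 (20.7%), against 1.12% of all genes, and all 6 are lysosomal genes. Lysosomal genes outside the list, which are described below, give a closer comparison. Among those with a window CACGTG was present for 13 of 65 and TCACGTGA for 5 of 65 (7.69%). Both shares lay between those of the members and of all genes, so the excess over all genes was not particular to the members. For TGGGAA the share was 27.6% among the members and 28.3% among all genes. A match describes the letters in a window and does not show that a factor is bound there.

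The bases before the annotated start are shown for Ctsd and Ctsl, the members that changed most, with matches to TCACGTGA and other CACGTG matches in capitals. Whether transcription begins at these annotated starts in the lines was not tested. Both genes lie on the minus strand, at chr7:142387828-142388077 (Ctsd) and chr13:64370521-64370770 (Ctsl).
Ctsd: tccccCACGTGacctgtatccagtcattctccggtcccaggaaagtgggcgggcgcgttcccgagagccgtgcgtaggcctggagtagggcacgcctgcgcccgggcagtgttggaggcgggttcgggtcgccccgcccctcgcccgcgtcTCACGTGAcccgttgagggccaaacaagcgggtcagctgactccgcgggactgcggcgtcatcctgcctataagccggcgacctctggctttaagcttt
Ctsl: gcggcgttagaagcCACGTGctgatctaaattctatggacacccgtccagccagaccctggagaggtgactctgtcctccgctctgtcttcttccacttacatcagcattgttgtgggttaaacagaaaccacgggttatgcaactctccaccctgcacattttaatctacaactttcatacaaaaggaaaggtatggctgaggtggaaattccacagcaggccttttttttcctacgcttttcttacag

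Shorter stretches are shown for the other 5 genes with TCACGTGA, and for Lamp1, whose window held 4 copies of CACGTG. They lie at chr2:164833734-164833802 (Ctsa, plus strand), chr8:105566035-105566094 (Atp6v0d1, minus), chr16:44139358-44139417 (Atp6v1a, minus), chr8:3500447-3500506 (Mcoln1, plus), chrX:134601167-134601255 (Gla, minus) and chr8:13159074-13159179 (Lamp1, plus), and the capitals have the same meaning.
Ctsa: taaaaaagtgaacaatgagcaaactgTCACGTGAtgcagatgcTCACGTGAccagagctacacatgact
Atp6v0d1: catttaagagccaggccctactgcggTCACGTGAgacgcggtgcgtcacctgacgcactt
Atp6v1a: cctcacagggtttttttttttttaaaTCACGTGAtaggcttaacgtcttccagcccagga
Mcoln1: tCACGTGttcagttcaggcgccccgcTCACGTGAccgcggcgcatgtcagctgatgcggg
Gla: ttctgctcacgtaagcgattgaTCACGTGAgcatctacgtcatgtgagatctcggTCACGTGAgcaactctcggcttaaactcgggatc
Lamp1: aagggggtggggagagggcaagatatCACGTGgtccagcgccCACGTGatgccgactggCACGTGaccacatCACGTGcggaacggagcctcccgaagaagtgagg

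Matches were found both for members that rose and for members that did not pass the test described next (limma). Among the members with a window, CACGTG was found for 5 of the 12 that rose (41.7%) and for 6 of the 16 measured members that did not pass (37.5%). TCACGTGA was found for 3 of 12 and for 3 of 16. Ctsa, Ctsd and Atp6v0d1 held it and rose, whereas Atp6v1a, Mcoln1 and Gla held it and did not pass.

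**Figure D1:**
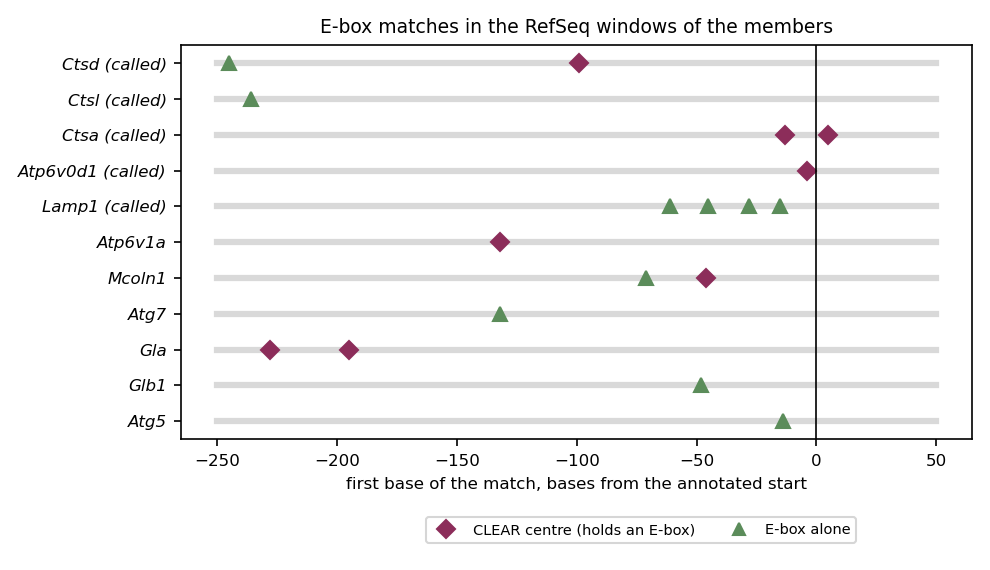
Positions of E-box matches in the windows of the 11 members that held one, in bases from the annotated start (0, vertical line); diamonds mark the CLEAR centre and triangles an E-box alone, and genes are ordered by their mean change with doxycycline. Lamp1 holds 4 E-boxes within 61 bases of its start, and the match of Ctsl lies at -236.

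After 24 hours of doxycycline 15 of the 36 genes rose and none fell. They were 8 hydrolases (Ctsd, Ctsl, Neu1, Asah1, Ctsh, Tpp1, Ctsa and Ctsb), Lamp2, Npc2 and Lamp1, the pump subunit Atp6v0d1, and the autophagy genes Wipi1, Map1lc3b and Sqstm1. This was 41.7% of the members, against 4.76% of all tested genes that were called higher and 6.95% that were called lower (limma with line as a block, adjusted p under 0.05). Because the list was drawn up with earlier results of these data known, the gap between these shares is description only. Signals of the members were high for the array, and among tested genes whose mean signal reached the 75th percentile 9.77% were called higher and 11.1% lower. Without adjustment, 19 members were higher and none lower at p under 0.05. Of the 36 members, 26 were higher in both lines, against 34.2% of all tested genes and 39.1% of those with high signals, 10 moved in opposite directions and none was lower in both. The median of the members' log2 changes was 0.45 in line 8534 and 0.41 in line 8542, against 0.01 and 0.0001 over all tested genes.

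The calls rest on the model. None of the 15 passed without the pairing by line (lowest limma adjusted p = 0.0687) or without the intensity trend in the variance (lowest limma adjusted p = 0.229), and 13 members were higher at an unadjusted p under 0.05 in each of those fits. With the mean of all probe sets of a gene in place of the brightest, 7 members were called. Ctsa, Ctsl, Lamp1, Map1lc3b, Neu1, Npc2, Sqstm1 and Wipi1 lost their calls in that fit, and the mean log2 change of Neu1 was 0.58 (limma adjusted p = 0.252). The filter, the variance trend and the adjustment were redone on the gene means. Lamp1, which has 1 probe set, thus lost its call with an unchanged mean log2 change of 0.46 (limma adjusted p = 0.0604). The study's own criterion asked that both lines change by over 2-fold. Ctsd and Ctsl (2 of 36) met it upward, against 2.33% of all tested genes, and none met it downward, against 4.18%. At 1.5-fold 12 members met it upward, against 6.42%. In bulk RNA a change in the level per cell cannot be told apart from a change in the share of cells that express a gene.

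**Figure D2:**
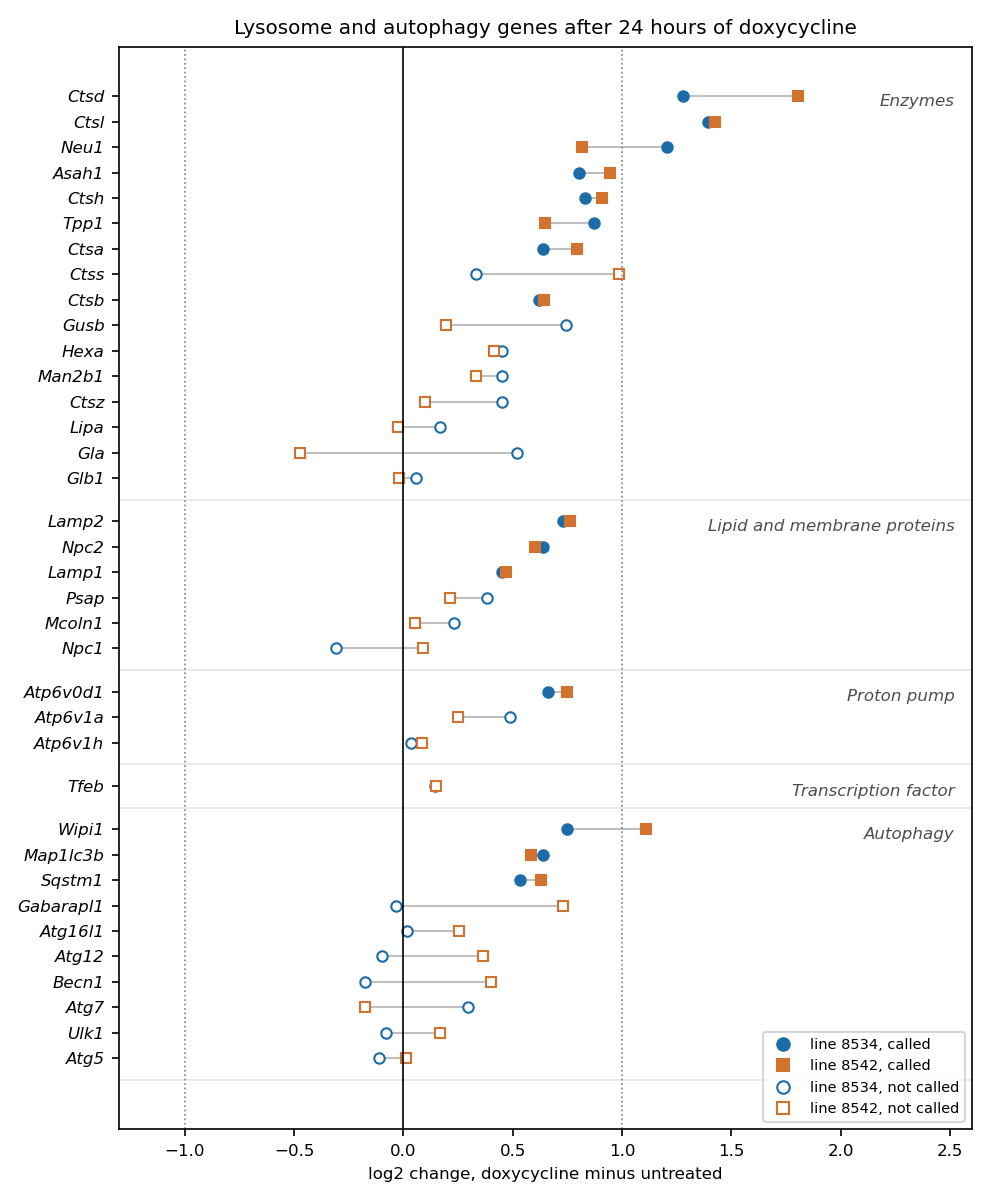
Log2 change (doxycycline minus untreated, 24 hours) of the 36 members in each line, grouped by role; circles are line 8534, squares line 8542, filled symbols mark the called members, and the dotted lines stand at a 2-fold change. All 15 filled pairs lie to the right of 0, and the autophagy genes that were not called lie on both sides of it.

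Among the 16 hydrolases the aspartic protease gene Ctsd and the cysteine protease gene Ctsl rose most. Ctsd, which encodes cathepsin D, had 4273 and 5507 units in treated 8534 and 8542 cells, against 1759.5 and 1574 units in untreated cells (2.43-fold and 3.50-fold higher, mean log2 change 1.54 ± 0.37, SD, n = 2 lines, limma adjusted p = 0.00126). Ctsl, the gene of cathepsin L, had 1170.0 and 1001 units in treated 8534 and 8542 cells, against 446 and 373 units in untreated cells (2.62-fold and 2.68-fold, mean log2 change 1.41 ± 0.02, limma adjusted p = 0.00103). For both genes both treated signals lay above both untreated ones. Such separation, here and below, is description of genes already called. With 2 arrays per condition it adds no separate support, and its share among all genes was not counted. With the mean of both its probe sets, 1 of which lay under the filter on level, the mean log2 change of Ctsl was 0.71 and the call was lost (limma adjusted p = 0.12).

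Other cathepsins rose by less. Ctsh, an aminopeptidase of this family, had 220.1 and 235.8 units in treated 8534 and 8542 cells and 124 and 126 units in untreated cells (mean log2 change 0.87 ± 0.05, limma adjusted p = 0.0174). Ctsa, a carboxypeptidase that also shields β-galactosidase and neuraminidase in one complex, had 369 and 477 units in treated cells, against 237 and 275 units in untreated cells (mean log2 change 0.72 ± 0.11, limma adjusted p = 0.0207). Neither gene overlapped between the conditions. Ctsb, the gene of the cysteine protease cathepsin B, had 1946 and 1398 units in treated 8534 and 8542 cells, against 1268 and 896 units in untreated cells (1.54-fold and 1.56-fold, limma adjusted p = 0.013). Here each line rose, and both treated arrays were above both untreated ones. Ctsz had 401 and 209.5 units in treated cells, against 293 and 196 units in untreated cells, a mean log2 change of 0.28 ± 0.25 that did not pass (limma adjusted p = 0.365). Ctss, best known from antigen-presenting cells, had 27.2 and 5.75 units in treated 8534 and 8542 cells, against 21.6 and 2.91 units in untreated cells. Of all values 20% lay under 5.52 units, so that its signal was close to the floor of the arrays in line 8542, and the change did not pass (limma adjusted p = 0.658).

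The other hydrolases, a peptidase and enzymes that act on glycans and lipids, were divided. Neu1, the lysosomal neuraminidase, had 167 and 127 units in treated 8534 and 8542 cells, against 72.4 and 72.1 units in untreated cells (2.30-fold and 1.76-fold, mean log2 change 1.01 ± 0.28, limma adjusted p = 0.0224). Asah1, the gene of acid ceramidase, had 522 and 463 units in treated cells, against 299 and 240.4 units in untreated cells (mean log2 change 0.87 ± 0.10, limma adjusted p = 0.00875). Tpp1, a tripeptidyl peptidase, had 1277 and 1248 units in treated cells, against 698 and 796 units in untreated cells (mean log2 change 0.76 ± 0.16, limma adjusted p = 0.00934). In none of these genes did an untreated array reach a treated one. The β-hexosaminidase subunit Hexa and the α-mannosidase gene Man2b1 were higher in both lines, with mean log2 changes of 0.43 ± 0.03 and 0.39 ± 0.08, and did not pass (limma adjusted p = 0.164 and 0.153). Gusb, the β-glucuronidase gene, had log2 changes of 0.74 (8534) and 0.20 (8542) (limma adjusted p = 0.322). The β-galactosidase gene Glb1 and the acid lipase gene Lipa had mean log2 changes of 0.02 ± 0.06 and 0.07 ± 0.13. Gla, the α-galactosidase gene, moved apart between the lines. It had 92.7 units in treated and 64.6 units in untreated 8534 cells, and 36.4 and 50.5 units in treated and untreated 8542 cells.

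Of the 6 lipid-handling and membrane proteins measured, 3 rose. Lamp2, which encodes a glycoprotein of the lysosomal membrane that also serves chaperone-mediated autophagy, had 1296 and 1208 units in treated 8534 and 8542 cells, against 782 and 713 units in untreated cells (1.66-fold and 1.69-fold, mean log2 change 0.74 ± 0.02, limma adjusted p = 0.008). Lamp1, its close relative, had 2679 and 2769 units in treated cells, against 1957 and 1998 units in untreated cells (mean log2 change 0.46 ± 0.01, limma adjusted p = 0.0337). Lamp1 was called in 5 of the 10 alternative settings that kept it and had no call in the other 5, among them the fits without the filter on level, with median centring of the arrays and with the mean of all probe sets. Npc2, a soluble carrier that hands cholesterol to the membrane protein NPC1, had 1722 and 2159 units in treated 8534 and 8542 cells, against 1106 and 1425 units in untreated cells (mean log2 change 0.62 ± 0.03, limma adjusted p = 0.013). Its partner Npc1 changed by -0.31 in line 8534 and by 0.09 in line 8542 (limma adjusted p = 0.825). Psap, the precursor of the saposins, which help hydrolases reach lipids, had a mean log2 change of 0.30 ± 0.12 (limma adjusted p = 0.178). Its other probe set changed by 0.57 and 0.49 and was called (limma adjusted p = 0.0331). Mcoln1, the calcium channel of the lysosomal membrane, changed by 0.14 ± 0.13 (limma adjusted p = 0.652).

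The proton pump has a membrane sector, V0, and a cytosolic ATPase sector, V1. Atp6v0d1, a V0 subunit, had 715 and 1052 units in treated 8534 and 8542 cells, against 452 and 628 units in untreated cells (1.58-fold and 1.68-fold, mean log2 change 0.70 ± 0.06, limma adjusted p = 0.0126). It was higher by a like amount in each line, and both treated arrays lay above both untreated ones. Atp6v1a, the catalytic V1 subunit, had log2 changes of 0.49 and 0.25 in lines 8534 and 8542 and did not pass (limma adjusted p = 0.134), nor did Atp6v1h, with a mean log2 change of 0.06 ± 0.03.

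Tfeb had 159 and 65.4 units in treated 8534 and 8542 cells, against 144 and 58.9 units in untreated cells. The change was 0.15 ± 0.01 on the log2 scale in mean over the lines (limma adjusted p = 0.724), and the level of Tfeb was lower in line 8542 than in line 8534 under either condition. The arrays measure RNA only, and the activity of TFEB, which is set largely by its phosphorylation and entry into the nucleus, was not measured.

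**Figure D3:**
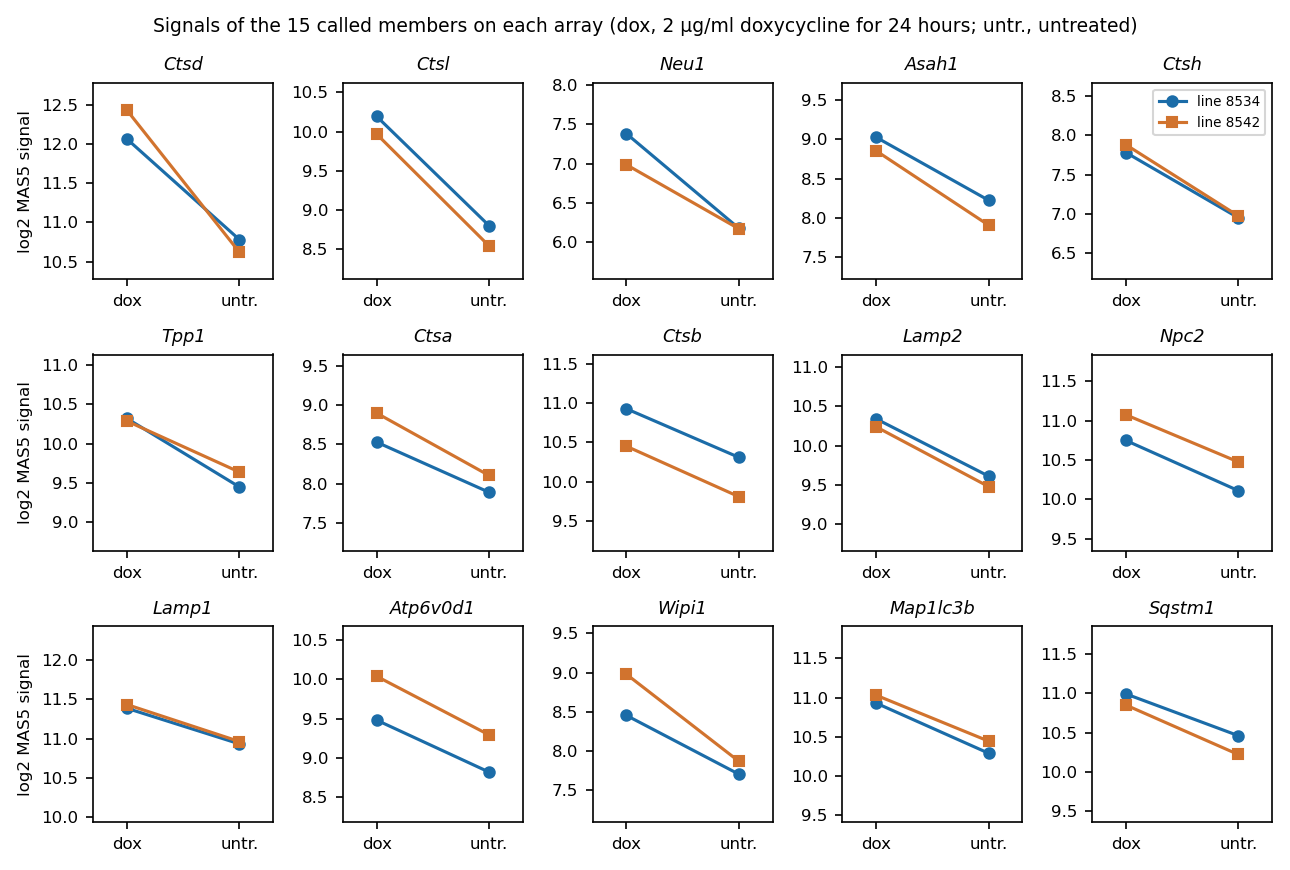
Log2 MAS5 signal of the 15 called members on the doxycycline-treated (dox) and untreated (untr.) array of each line; treated and untreated arrays of a line are joined, and every panel spans 2.5 log2 units. Every line falls to the right, steepest for Ctsd and Ctsl and least so for Lamp1.

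The autophagy genes set beside the lysosomal ones were uneven, with 3 of 10 called higher and 6 of 10 moving in opposite directions in the lines, against 32.4% of all tested genes and 21.1% of those with high signals. Wipi1, which encodes a phosphoinositide-binding protein of the forming autophagosome, had 351 and 504 units in treated 8534 and 8542 cells, against 209 and 234 units in untreated cells (1.68-fold and 2.15-fold, mean log2 change 0.93 ± 0.25, limma adjusted p = 0.0114). Map1lc3b, the gene of the ATG8 protein LC3B, had 1949 and 2090.0 units in treated cells, against 1253 and 1394 units in untreated cells (log2 changes 0.64 and 0.58, mean 0.61 ± 0.04, limma adjusted p = 0.0136). Sqstm1, the gene of the cargo receptor p62, had 2036 and 1846 units in treated cells, against 1409 and 1193 units in untreated cells (1.44-fold and 1.55-fold, mean log2 change 0.58 ± 0.07, limma adjusted p = 0.0175). In these 3 genes the conditions did not overlap, and both lines changed in the same direction. All 3 calls were lost with the mean of all probe sets (limma adjusted p = 0.147 for Wipi1, 0.166 for Map1lc3b and 0.0712 for Sqstm1) and without probe sets ending in _x_at, _s_at or _a_at (limma adjusted p = 0.0707, 0.106 and 0.228), so that no autophagy member was called under either choice. The mean log2 change of Map1lc3b was then 0.38 and 0.37, and that of Sqstm1 1.17 and 1.76.

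The other 7 autophagy members did not pass the test. Gabarapl1, another ATG8 gene, was at 321 units in treated and 329 units in untreated 8534 cells, and at 333 and 201.4 units in treated and untreated 8542 cells (limma adjusted p = 0.368). Becn1, which encodes Beclin 1 of the nucleating lipid kinase complex, was at 534 and 602 units in treated and untreated 8534 cells, and at 771 and 585 units in treated and untreated 8542 cells (limma adjusted p = 0.756). On these probe sets both genes were higher in line 8542 alone. The other probe set of Gabarapl1 changed by 0.05 and 0.75 in lines 8534 and 8542. Those of Becn1 were mixed: -0.03 and 0.14, -0.31 and -0.01, 0.62 and 0.05, and 0.13 and 1.03. Of the conjugation genes, Atg12 changed by -0.10 and 0.37 in lines 8534 and 8542, Atg16l1 by 0.02 and 0.26, Atg5 by -0.11 and 0.01, and Atg7 by 0.29 and -0.18. Ulk1, the gene of the initiating kinase, changed by -0.08 and 0.17.

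Set against each other, the 25 lysosomal members measured had a median log2 change of 0.52 in line 8534 and 0.47 in line 8542, and 21 of them were higher in both lines. The 10 autophagy members had a median of -0.01 in line 8534 and 0.38 in line 8542, and 4 were higher in both. The gap between the medians was thus 0.53 in line 8534 and 0.09 in line 8542 (0.33 with the lines averaged). The difference between the groups was larger in one line than in the other, and whether the lines differ could not be tested with 1 pair of arrays each.

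The other probe sets of the same genes give a further reading of the same RNA. Called members were picked by a rise on these same arrays. A rise of their other probe sets is therefore not independent support, and the shares over all probe sets are given for scale only. For the 10 called members with another probe set above the filter, 21 of 22 such probe sets were higher in both lines, against 33.6% of all tested probe sets, and 7 were called higher, against 3.69%. All 3 other probe sets of Lamp2 were among them, with changes between 0.80 and 1.04. The exception belonged to Neu1, 1 probe set of which (ending in _x_at, a mark of possible cross-hybridization) changed by -0.22 and -0.37 in lines 8534 and 8542 (limma adjusted p = 0.539), whereas its other one changed by 1.11 and 0.93 (limma adjusted p = 0.364). Wipi1 had 1 probe set that hardly moved (0.01 and 0.06), and its other 4 were higher in both lines. Ctsd, Asah1, Lamp1 and Atp6v0d1 had a single probe set, and the other probe set of Ctsl (mean log2 value 2.81) lay under the filter and changed by 0.48 and -0.46. For members that were not called, 15 of 23 other probe sets were higher in both lines and 4 were lower in both, among them the other probe set of Man2b1 (-2.15 and -0.44, limma adjusted p = 0.15).

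**Figure D4:**
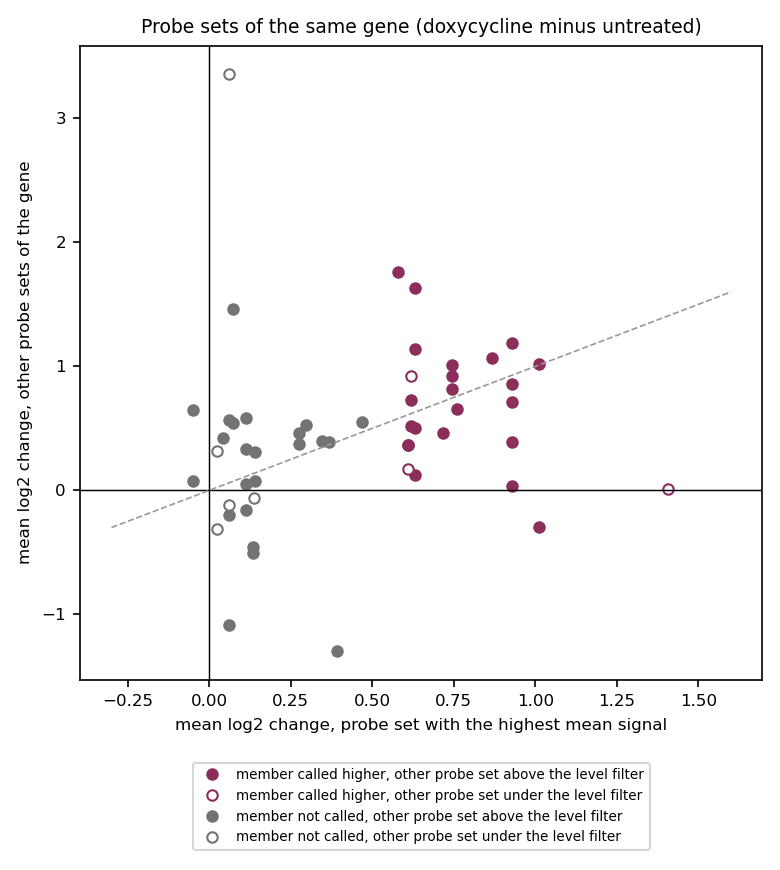
Mean log2 change (doxycycline minus untreated) of the other probe sets of each member against that of the probe set that represents it; colour marks members called higher, open symbols mark probe sets under the filter on level, and the dashed line marks equal changes. All but 1 of the 22 filled points of called members lie above 0.

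Genes of these pathways outside the list were tested as well. Of 73 other lysosomal genes tested (hydrolases, membrane and lumen proteins, pump subunits), 12 rose (16.4%), 2 fell and 59 did not pass. Of 62 other autophagy genes, 8 rose (12.9%), 1 fell and 53 did not pass. Their median log2 changes were 0.32 and 0.27 for the lysosomal genes and 0.14 and 0.24 for the autophagy genes, in lines 8534 and 8542. The shares called higher lay above the 4.76% of all tested genes. They lay under those of the listed members (12 of 25 lysosomal and 3 of 10 autophagy members). Members and wider lists were both chosen with earlier results of these data known, so this gap is description only. The part of that choice in it was not tested. Among tested genes with high signals 9.77% were called higher, and the 12.9% of the other autophagy genes was not far above this. By direction the autophagy genes were ordered otherwise, with 59.7% of the other genes higher in both lines, against 40.0% of the listed ones.

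Of the 12 lysosomal genes that rose, 4 encode parts of the pump. Atp6v1e1, a stalk subunit of V1, had 2718 and 2530.3 units in treated 8534 and 8542 cells, against 1322 and 1077 units in untreated cells (2.06-fold and 2.35-fold, limma adjusted p = 0.00159). Atp6ap1, an accessory protein of the pump, rose by 0.82 ± 0.16 on the log2 scale, and the V0 subunit Atp6v0e by 0.69 ± 0.06. Atp6v1b1 fell, to 27.6 and 98.2 units in treated 8534 and 8542 cells, against 78.8 and 160.2 units in untreated cells (limma adjusted p = 0.039). Its product is the B subunit isoform known from acid-secreting epithelia. The pump list therefore held 4 genes that rose, 1 that fell and 14 that did not pass.

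Among membrane and lumen proteins 6 of 25 rose. Ctns, the cystine exporter mutated in cystinosis, rose most (2.96-fold and 1.88-fold, limma adjusted p = 0.0159), followed by Ostm1, the partner of the chloride exchanger CLC-7 (0.93 ± 0.07 on the log2 scale). Grn, the gene of progranulin, had 1938 and 2488 units in treated 8534 and 8542 cells, against 963 and 1427 units in untreated cells (limma adjusted p = 0.00376). Cln6, which encodes a protein of the endoplasmic reticulum needed for lysosomal enzyme transport, fell by 0.88 on the log2 scale (limma adjusted p = 0.0181). Of 29 other hydrolases only Manba and Idua, enzymes of glycan breakdown, rose (mean log2 changes 1.04 ± 0.24 and 0.90 ± 0.12), and none fell. Their share of 6.9% lay between those of all tested genes (4.76%) and of genes with high signals (9.77%). None of 16 genes for sorting to the lysosome was called by limma (without adjustment 4 were higher at p under 0.05 and 0 lower).

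In each of the 4 autophagy lists 11.1% to 14.3% of the genes were called higher. The shares were 4.76% among all tested genes and 9.77% among those with high signals. Nrbf2, Zfyve1 and Vmp1 rose among 21 genes of initiation and nucleation. Gabarap rose and Atg3, the E2-like enzyme of ATG8 conjugation, fell by 0.68 on the log2 scale (limma adjusted p = 0.0345) among 9 conjugation genes. The mitophagy receptor Bnip3 rose 2.06-fold and 2.36-fold (limma adjusted p = 0.0115) and the ER-phagy receptor Retreg1 rose by 0.83 ± 0.21 on the log2 scale among 14 cargo receptors. Epg5 and Tecpr1, which act in fusion with the lysosome, rose among 18 genes.

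Of the nutrient-sensing genes and relatives of TFEB, 1 of 30 was called, Rragc, which encodes a RAG GTPase that recruits mTORC1 to the lysosome (log2 changes 0.57 and 0.48, limma adjusted p = 0.0437). Tfe3 had 196 and 193 units in treated 8534 and 8542 cells, against 143 and 121.5 units in untreated cells. The change of 0.56 ± 0.15 on the log2 scale went the same way in both lines and did not pass (limma adjusted p = 0.0918). Mitf changed by 0.21 ± 0.15 (limma adjusted p = 0.698).

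**Figure D5:**
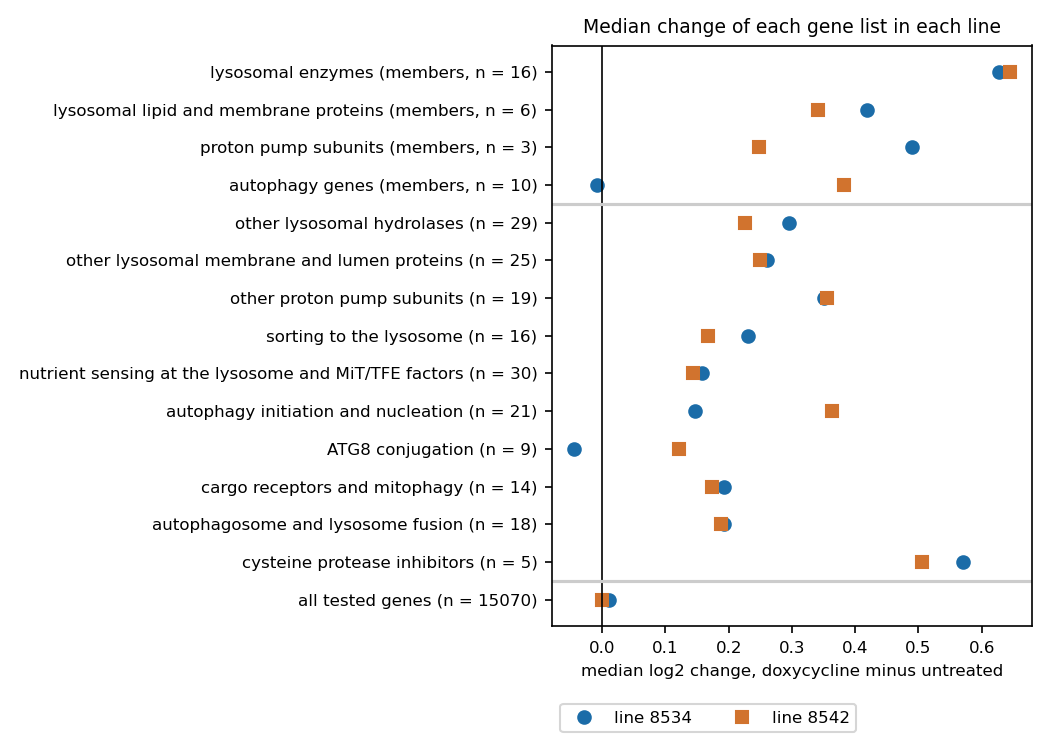
Median log2 change (doxycycline minus untreated) of the members by role, of 10 lists of other pathway genes and of all tested genes, 1 point per line; n is the number of genes tested. The member enzymes lie at 0.63 and 0.65, and the member autophagy genes at -0.01 in line 8534 and 0.38 in line 8542.

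The NOTCH target gene Nrarp, read as a check on the labels, had 219 and 143 units in treated 8534 and 8542 cells, against 4730.0 and 4511 units in untreated cells (limma adjusted p = 7.86e-05). Luminal keratin genes were abundant throughout, Krt8 with 7165 and 4537 units in treated 8534 and 8542 cells, against 4858 and 3467 units in untreated cells, and 5 of 8 luminal markers rose and 1, Krt19, fell. Among all tested genes 4.76% were called higher and 6.95% lower, and among those with high signals 9.77% and 11.1%. Because macrophages are rich in lysosomes, leukocyte markers were read as well. The summed signal of 15 such markers was 880 and 796 units in treated 8534 and 8542 cells, against 567 and 579.7 units in untreated cells. Of these markers 1, Cd14, was called higher and 7 were higher in both lines. Adgre1, Itgam, C1qb, C1qc, Cd3e and Cd79a moved in opposite directions, and Ptprc and C1qa were lower in both. Lyz2 and Cd14 added most to the rise of the sum in line 8534, and Cd14 in line 8542. Cd14 had 273 and 432 units in treated 8534 and 8542 cells, against 188 and 249 units in untreated cells. Lyz2 was 2.11-fold and 1.44-fold higher and did not pass (limma adjusted p = 0.0984). Fcer1g, the only leukocyte marker past 2-fold in both lines, had 42.7 and 37.7 units in treated 8534 and 8542 cells. In untreated cells it had 5.49 and 16.5 units, and it did not pass (limma adjusted p = 0.0568). Cd68 was also among the other lysosomal genes tested. The part of the leukocyte markers in the rise of the members was not tested. None of 6 basal markers was called, and their summed signal was 9538 and 284 units in treated 8534 and 8542 cells, against 6015.0 and 226 units in untreated cells. In line 8534 Acta2 had 6588 units in treated and 3012 units in untreated cells. Of the 6, 4 were higher in both lines, Krt5 moved in opposite directions and Krt14 was lower in both (869 and 10.0 against 1379 and 15.9 units). The pan-leukocyte gene Ptprc had at most 6.92 units in treated and at most 7.2 units in untreated cells, near the 20th percentile of all values.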

How the data were processed

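The authors processed the raw arrays with MAS5 and deposited log2 values of the scaled signal for each of the 4 arrays. According to the methods these were the A version of the mouse array, but the table has 45101 probe sets. The base of the logarithm was inferred: with base 2 the 2% trimmed mean of the signal was 97.3 to 101.3 units on the 4 arrays, and with base e it was 1291. For the MAS5 version and scaling target, nothing was given in the sources used here. Detection calls were not used.

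Control probe sets (64) were left out. Probe sets were named by GEO's platform annotation, which gives 1 symbol for 34945, several for 932 and none for 9160. No floor or pseudocount was applied. Probe sets with a mean log2 value of at least 2.94, the 25th percentile, were kept (33778). To these limma 3.58.1 in R 4.3.3 fitted a term for line and one for doxycycline. Variances were moderated (eBayes) along an intensity trend, p values were adjusted over all probe sets kept (Benjamini-Hochberg), and an adjusted p under 0.05 was called. The model left 1 residual degree of freedom and 6.18 prior ones. The arrays are paired because both of a pair come from 1 cell line (r = 0.36 for their deviations from the condition means). The p values weigh the mean change with doxycycline against the disagreement of the 2 lines about it, array noise included, with strength borrowed from the remaining probe sets. The smallest p of an exact test with 2 lines is 0.5. The fit was tested on simulated data. Sequences are from RefSeq (GRCm38.p6).

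The members and lists were chosen with earlier results of these data known. Every member is named, with values on each array for members that were called, that passed 2-fold in both lines, or whose lines changed in opposite directions by more than 1 in difference, and for Tfeb. None met the third condition, and values on each array for other members (Ctss, Ctsz, Gla, Gabarapl1 and Becn1) were added after they were seen. Of each wider list up to 4 called genes with the largest changes are named, and Tfe3, Mitf, Cst6, Cst3, Serpinb6a, Serpinb9 and marker genes were added. Alternatives were other filters on level, a floor, a pseudocount, quantile normalization, median centring, other choices of probe set, no pairing by line, no trend, robust moderation, 1 line at a time and a fold threshold of 1.5.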

Additional observations from a re-analysis of the deposited data

How the results depend on the processing

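The 15 calls were 14 without the filter on level and with median centring (Lamp1 lost in each), and all 15 were kept with a filter at the 50th percentile, the floor, the pseudocount, quantile normalization and robust moderation. With the mean of all probe sets of a gene 7 were called, and without probe sets ending in _x_at, _s_at or _a_at 9 of 29 tested members were called. Without the replicate block (the pairing by line) 0 were called, and likewise 0 without the intensity trend. None of these settings called a member lower. The number past 2-fold in both lines was 2 as reported, 1 with the mean of all probe sets, 0 without those probe sets (both Ctsd and Ctsl are read from one ending in _a_at), and 12 at a threshold of 1.5-fold, where 6.42% of all tested genes passed. The median log2 change of all members (0.41) was 0.37 with the pseudocount, 0.46 with quantile normalization, 0.45 with the mean of all probe sets, 0.37 without those probe sets, and 0.41 to 0.45 with 1 line at a time. That of the lysosomal members (0.47) was 0.54 with quantile normalization, 0.59 with the mean of all probe sets, and 0.47 to 0.52 with 1 line at a time. The autophagy median (0.14) was -0.0087 in line 8534 and 0.38 in line 8542, changed sign when line 8542 was left out, and was 0.23 with the mean of all probe sets and 0.18 with quantile normalization. Members that were not called changed sign with the mean of all probe sets: Man2b1 to -0.45, Atg5 to 0.22, Atg7 to -0.34 and Atg12 to -0.28. Man2b1 was at -1.29 without the probe sets named above, and Atg5 at 0.0045 with quantile normalization. The cause of these differences was not tested. With 1 array per line and condition the number of arrays limits the precision, and low signals such as those of Ctss carry little.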

Other observations

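Protease inhibitors were measured beside the cathepsins. Cstb, the gene of cystatin B, a cytosolic inhibitor of cathepsins B, H and L, had 3886 and 3357 units in treated 8534 and 8542 cells, against 2212 and 2407 units in untreated cells (1.76-fold and 1.39-fold higher; limma adjusted p = 0.0163). Of 5 such genes tested, 1 rose, none fell and 4 did not pass. Cst6, the gene of the secreted cystatin E/M, had 86.3 and 20.1 units in treated cells, against 37.9 and 1.54 units in untreated cells, and did not pass (limma adjusted p = 0.0629); the untreated signal in line 8542 lay under the 20th percentile of all values (5.52 units). The secreted inhibitor Cst3 had a mean log2 change of -0.03.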
